A study of Mus musculus with 72 samples.

Results

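The CCN family consists of 6 genes, *Ccn1* to *Ccn6*, which were found by their symbols among the 50600 genes counted in each library. They encode secreted matricellular proteins, which bind integrins, heparan sulphate proteoglycans and growth factors in the extracellular matrix and alter how cells adhere, migrate and respond to growth factors, rather than building the matrix itself. *Ccn1* (formerly *Cyr61*) and *Ccn2* (formerly *Ctgf*) are fast-responding genes and standard targets of YAP and TAZ, the coactivators that act with TEAD factors at the end of the Hippo pathway and that can be activated through G protein-coupled receptors. The other 4 members are *Ccn3* (*Nov*), *Ccn4* (*Wisp1*, described as a Wnt target), *Ccn5* (*Wisp2*) and *Ccn6* (*Wisp3*). *Ccn5* lacks the carboxy-terminal cystine-knot module that the others carry.

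The libraries came from mouse melanoma cell lines that carry the gastrin-releasing peptide receptor, GRPR, a G protein-coupled receptor, or lack it. There were 72 libraries of polyadenylated RNA from 6 lines under 4 treatments with 3 replicates each, all after 18 h of starvation and a 4 h treatment in 0.5% serum. Mock cells received 0.1% DMSO, GRP cells received 10 nM of the peptide agonist gastrin-releasing peptide, RC cells received 1 µM of the GRPR antagonist RC-3095, and GRP+RC cells received both. All lines carried the Tyr::NRASQ61K transgene, in which the tyrosinase promoter drives mutant NRAS in the melanocyte lineage. Lines 1057 and 1064 came from female mice that were also Cdkn2a-/- and Tyr::CreA/° with Cdh1dF/dF, so that E-cadherin was deleted by tyrosinase-driven Cre, and both are labelled GRPR positive. Line 1181 came from a male Cdkn2a-/- mouse labelled °/° in place of the Cre allele and Cdh1dF/dF, and line 1014 came from a female mouse with the NRAS transgene only. The label of 1181 does not by itself say whether its Cdh1 allele was recombined, and the study counts the line among those with E-cadherin. Each of these 2 parental lines was used in 2 versions made by transfection and drug selection, one with CMV::tGFP (1181-Ctrl and 1014-Ctrl) and one with CMV::Grpr/tGFP (1181-Grpr and 1014-Grpr), in which a viral promoter drives the receptor. Each group therefore stands for 1 cell line or 1 selected version of it, and the labels do not say whether the 3 replicates of a group were separate cultures. The study describes its culture experiments in general as biological replicates, without saying how the numbered libraries were grown, so that p-values measure the spread between these samples, which may be technical.

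Library totals ranged from 19512882 to 46862053 counts with a median of 2.81e+07, and a count of 3, taken as the limit of detection, corresponded to at most 0.154 CPM (counts scaled to the library's normalised total). All 7 melanocytic markers were above that limit in every library, while the summed levels of fibroblast, endothelial, epithelial and immune markers reached at most 35.1, 6.94, 1.51 and 0.308 CPM. *Grpr* stood at 187 to 275 CPM in 1057, 472 to 1284 CPM in 1064, 8.49 to 79.9 CPM in 11 libraries of 1181-Grpr, 107 to 620 CPM in 1014-Grpr and at most 0.0915 CPM in the Ctrl lines, leaving aside 2 libraries that went against their labels. The library labelled 1014-Ctrl mock replicate 2 held 1165 *Grpr* counts and the Y-linked *Ddx3y*, and the library labelled 1181-Grpr GRP+RC replicate 2 held 0 *Grpr* counts and no *Ddx3y*. Both were kept under their labels. Tests of the members were also run without them, and those values are given where they bear on a result. Mean levels and correlations between genes include them, as do shares over all genes unless stated.

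The promoters of *Ccn1* and *Ccn6* are shown, these being the members with an entry in the RefSeq table used here. They set side by side a member expressed throughout and one barely detected. *Ccn1* was above 3 counts in all 72 libraries and reached the highest mean level per length of any member, in 1014-Grpr after GRP. After GRP *Ccn2* stood above it in 1181-Grpr and both Ctrl lines. *Ccn6* was at or under 3 counts in 62 of the 72 libraries. Each run covers the 250 bases before the RefSeq start (build GRCm38.p6) and is written 5′ to 3′ on the strand of the gene. Capitals mark matches to 4 motifs searched on both strands: CATTCC, the core of the TEAD site, TGACG, a half-site of the cAMP response element, TGANTCA, the AP-1 site, and TATAAA, the TATA box. None of the matches overlapped another motif.
Ccn1, chr3:145649986-145650235, minus strand: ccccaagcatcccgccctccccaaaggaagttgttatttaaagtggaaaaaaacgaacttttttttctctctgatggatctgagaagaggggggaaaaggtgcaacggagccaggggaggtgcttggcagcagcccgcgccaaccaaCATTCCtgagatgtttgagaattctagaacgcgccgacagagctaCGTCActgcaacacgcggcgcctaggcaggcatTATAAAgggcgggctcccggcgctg
Ccn6, chr10:39163795-39164044, minus strand: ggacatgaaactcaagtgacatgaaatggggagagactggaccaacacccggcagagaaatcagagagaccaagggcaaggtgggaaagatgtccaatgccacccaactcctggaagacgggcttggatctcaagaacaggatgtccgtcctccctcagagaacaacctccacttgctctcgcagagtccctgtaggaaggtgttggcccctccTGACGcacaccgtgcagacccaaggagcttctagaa
The *Ccn1* window held CATTCC on its own strand at 103 to 98 bases before the start, TGACG on the opposite strand at 58 to 54 bases and TATAAA at 25 to 20 bases. The *Ccn6* window held a single match, TGACG on its own strand at 36 to 32 bases before the start. Among 32851 promoters of the same length, 12.64% held CATTCC, 17.77% held TGACG, 6.749% held TGANTCA and 12.37% held TATAAA, so that each of these matches is common. Both windows were 54.8% G and C. A match of letters is a description and not a binding site, and neither window held TGANTCA.

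In GENCODE annotation of build GRCm38, *Ccn1* (ENSMUSG00000028195) occupies chr3:145646976-145649981 on the minus strand and encodes 379 codons. *Ccn2* (ENSMUSG00000019997) lies at chr10:24595442-24598683 on the plus strand with 348 codons, and *Ccn6* (ENSMUSG00000062074) on the same chromosome at chr10:39150970-39163794 on the minus strand with 354 codons. *Ccn3* (ENSMUSG00000037362, chr15:54745702-54754039, 354 codons) and *Ccn4* (ENSMUSG00000005124, chr15:66891320-66923201, 367 codons) both lie on the plus strand of chromosome 15. *Ccn5* (ENSMUSG00000027656) lies at chr2:163820861-163833146 on the plus strand and, with 251 codons, is the shortest. Each has 5 exons in its longest coding transcript, and no pair of members shared a run of 31 bases in their transcripts, so that none of their reads could be exchanged over such a run. Exons of *Ccn2* overlap those of *Gm15270* on the opposite strand by 665 bases, and exons of *Ccn6* overlap those of *Tube1* by 482 bases. The libraries were made with a kit that keeps the strand of the RNA, but the strand setting of the counting is not given in the sources used here. Reads in these stretches therefore cannot be assigned to one gene with certainty.

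Before treatment the family was expressed at low to moderate levels, with *Ccn2* the highest per length in 5 of 6 lines and *Ccn1* in 1064. In mock libraries, as RPKM (CPM per kilobase of exon, a level per length that can be compared between genes), line means ranged from 1.54 to 7.53 for *Ccn2*, 0.304 to 3.14 for *Ccn1* and 0.0250 to 2.76 for *Ccn3*. The highest *Ccn2* mean was that of 1014-Ctrl, where the library against its label held 10.6 RPKM and the others 4.93 and 7.02. In 1014-Grpr *Ccn3*, at 2.76 RPKM, stood above *Ccn1*, at 2.49 RPKM. The means of *Ccn4*, *Ccn5* and *Ccn6* did not exceed 0.0584, 0.131 and 0.231 RPKM. Over all 72 libraries *Ccn1* and *Ccn2* were never at or under 3 counts, *Ccn3* was so in 3 libraries, *Ccn4* in 33, *Ccn5* in 46 and *Ccn6* in 62. *Ccn4* was at 0 in 14 libraries, *Ccn5* in 22 and *Ccn6* in 33, and such a 0 allows a level of up to 0.154 CPM by counting error alone.

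**Figure D1:**
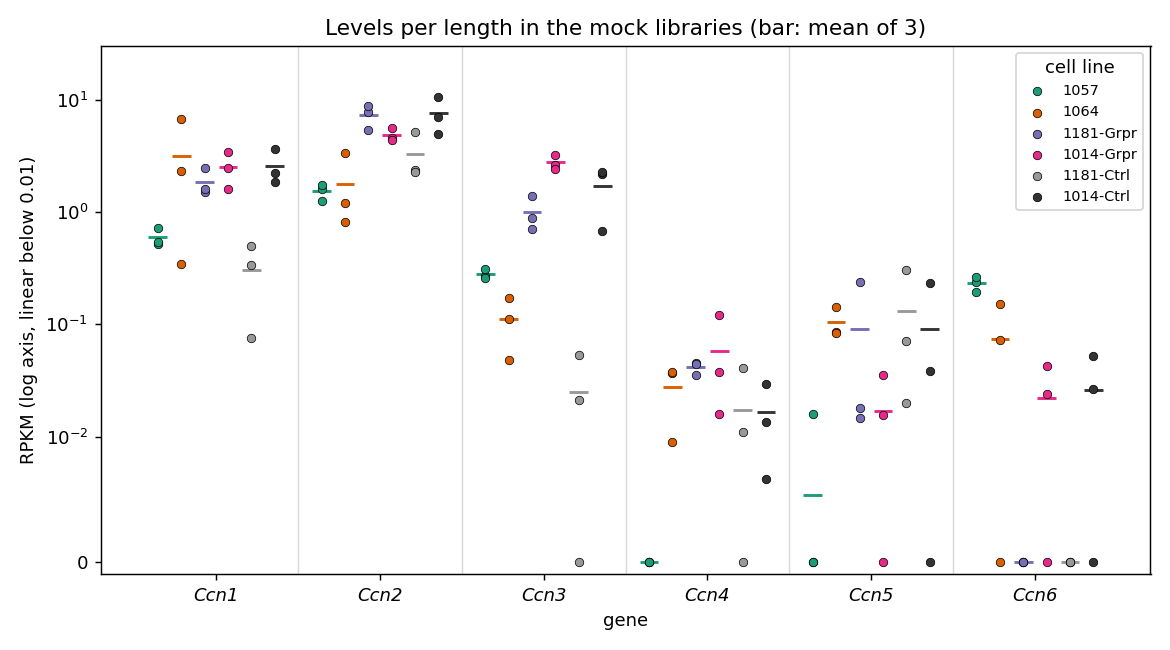
Level of each CCN gene in the mock libraries, as RPKM on a log axis that turns linear near 0. Points are the 3 libraries of each line, coloured by line, and bars are their means. *Ccn2* and *Ccn1* reach means of 7.53 and 3.14 RPKM, and *Ccn4* to *Ccn6* stay at or below a mean of 0.231. The 7.53 is the mean of 1014-Ctrl and includes the library against its label.

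The order of the lines before treatment differed between members. For *Ccn1*, mean mock levels fell from 6.33 CPM in 1064 through 5.17 in 1014-Ctrl, 5.04 in 1014-Grpr, 3.75 in 1181-Grpr and 1.2 in 1057 to 0.614 in 1181-Ctrl. A difference was called where the edgeR quasi-likelihood test gave an adjusted p under 0.05 and the log2 fold change exceeded 1, and no neighbours in this order were called, the closest being 1057 against 1181-Grpr (log2 difference -1.65 ± 0.764 s.e., adjusted p = 0.0573). Between the versions of 1181, which are not neighbours, *Ccn1* was higher in the Grpr version by 2.67 ± 0.857 (adjusted p = 0.0246). For *Ccn2* the order was 1014-Ctrl at 21.6 CPM, 1181-Grpr at 20.9, 1014-Grpr at 13.8, 1181-Ctrl at 9.36, 1064 at 5.11 and 1057 at 4.40, with no neighbours called. The highest of the 1014-Ctrl mock libraries, at 30.5 CPM against 14.1 and 20.1, was the one whose *Grpr* went against its label, and both others lay under the mean of 1181-Grpr. Without the 2 libraries against their labels, still no neighbours in these orders were called for *Ccn1* or *Ccn2*.

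*Ccn3* varied more between lines than between treatments. Its mean mock level was 7.92 CPM in 1014-Grpr, 4.93 in 1014-Ctrl, 2.85 in 1181-Grpr, 0.80 in 1057, 0.318 in 1064 and 0.0718 in 1181-Ctrl, and 3 of the 5 steps were called. These were 1057 below 1181-Grpr (-1.84, adjusted p = 4.37e-05), 1057 above 1064 (1.35, adjusted p = 0.0116) and 1064 above 1181-Ctrl (adjusted p = 0.00741). Without the 2 libraries against their labels, 1181-Grpr below 1014-Ctrl was called as well (-1.16, adjusted p = 0.00347). Between the versions of 1181, *Ccn3* was called higher with Grpr (adjusted p = 3.02e-11). In 1181-Ctrl its mock counts were only 4, 2 and 0, so that no fold is given against that line. In mock the summed melanocytic markers stood at 13762 to 15772 CPM in 1181-Grpr and 5464 to 5743 CPM in 1181-Ctrl. The part of that difference in the *Ccn1* and *Ccn3* levels was not tested. In bulk RNA, more cells that express a gene and more RNA per cell cannot be told apart. *Ccn4* was at 0 in all 3 mock libraries of 1057 and was called lower there than in 1014-Ctrl (adjusted p = 0.0122), where the counts were only 2, 4 and 1, so that no fold is given. That call was lost without the library against its label (adjusted p = 0.0647). Over neighbours in these orders and the versions of a parental line, 6 differences were called in mock, 6 without the 2 libraries against their labels and 12 with the replicate as a block as well. Leaving out each replicate number gave 3 to 8, the 3 being without replicate 2. *Ccn5* gave no call between neighbours, and *Ccn6* was too low to be fitted.

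The lines differed widely across the transcriptome, which is the background for these calls. The mock group of 1014-Ctrl includes the library against its label, and the shares that involve it are given only with that library. Of 16596 genes tested, 28.3% were called between the mock groups of 1064 and 1014-Ctrl, 3.43% between 1014-Grpr and 1014-Ctrl, 15.8% between 1181-Grpr and 1014-Grpr, 33.7% between 1057 and 1181-Grpr, 37.2% between 1057 and 1181-Ctrl, 3.89% between 1181-Grpr and 1014-Ctrl and 27.4% between 1014-Grpr and 1181-Ctrl. The share was 33.7% between 1064 and 1181-Ctrl, 27% between 1057 and 1064, 30% between 1064 and 1181-Grpr, 19% between 1181-Ctrl and 1014-Ctrl, 33.8% between 1057 and 1014-Ctrl, 35.9% between 1057 and 1014-Grpr, and 7.63% between 1181-Grpr and 1181-Ctrl.

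The central question of the design was what activation of GRPR does to these genes. In 3 of the 4 lines that carry the receptor, every GRP library held more *Ccn1* and more *Ccn2* than every mock library, by 17.9 to 45.3 times in mean CPM for *Ccn1* and 2.68 to 18.5 times for *Ccn2*. In 1181-Grpr, the line with the lowest *Grpr*, and in both Ctrl lines the groups overlapped. The share of all genes whose groups did not overlap was not determined, here or for the comparisons below. Within lines, 4 of 12 tests of *Ccn1* and *Ccn2* were called, all of them higher after GRP, with a median log2 fold change of 1.22. Of 7 tests of *Ccn3* to *Ccn6* that passed the filter on low counts, 2 were called higher, with a median of 0.51. Over all genes tested 4.96% were called higher in 1057, 3.16% in 1014-Grpr and 1.52% in 1064. The share was 0% in 1181-Grpr, 1181-Ctrl and 1014-Ctrl. These tests did not use the pairing by replicate number. In 1181-Grpr 45 of 14506 genes and in 1181-Ctrl 37 of 14188 were at an unadjusted p under 0.05. The median log2 fold change of all genes lay between -0.02 and 0.00.

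**Figure D2:**
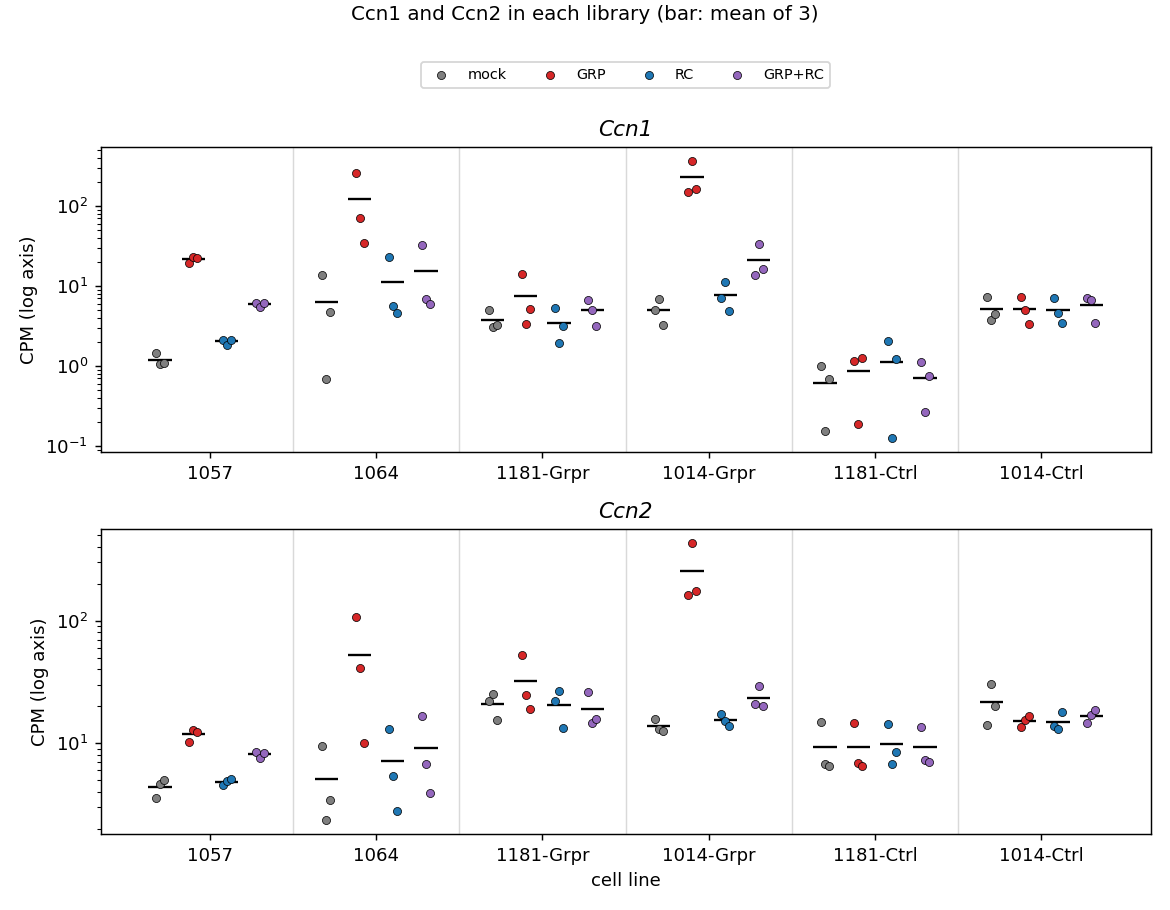
CPM of *Ccn1* and *Ccn2* in each of the 72 libraries on a log axis, by line and treatment. Points are libraries and bars are the mean of 3. In 1057, 1064 and 1014-Grpr the GRP libraries lie above the mock libraries for both genes, and *Ccn2* reaches 431 CPM in 1014-Grpr.

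*Ccn1*, an integrin ligand that promotes cell adhesion and migration, rose in 1057 and in 1014-Grpr. In 1057 its mock libraries held 1.44, 1.05 and 1.10 CPM, and its GRP libraries 19.2, 22.8 and 22.5 CPM. The 3 GRP libraries lay close together and far above mock, and the log2 fold change was 4.19 ± 0.114 s.e. (edgeR adjusted p = 1.67e-15). In 1014-Grpr the mock libraries held 4.97, 6.92 and 3.22 CPM and the GRP libraries 151, 368 and 165 CPM. Replicate 2 was the highest both before and after GRP, and the log2 fold change was 5.49 ± 0.499 (adjusted p = 1.05e-05), the largest of any member in any line.

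In 1064 the *Ccn1* mock libraries held 13.6, 0.694 and 4.72 CPM and the GRP libraries 256, 71.2 and 34.3 CPM. The groups did not overlap, but each spread over several-fold, and the log2 fold change of 4.23 ± 1.19 missed the threshold (adjusted p = 0.0627). The replicate numbers paired the libraries in this line, as libraries with the same number deviated together, and with the replicate as a block the fold change was 4.13 with an adjusted p of 6.37e-05. By replicate number, GRP stood over mock by 18.9, 103 and 7.26 times. DESeq2 without a block gave an adjusted p of 0.00344.

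In 1181-Grpr *Ccn1* stood at 4.97, 3.05 and 3.23 CPM in mock and at 13.9, 3.33 and 5.18 CPM after GRP. The third of these GRP values and the first exceeded every mock value, the second did not, and the log2 fold change was 1.00 ± 0.537 (adjusted p = 1.00). By replicate number GRP stood over mock by 2.80, 1.09 and 1.61 times. With the replicate as a block and without the library against its label, the value was 0.98 ± 0.155 and passed the adjusted p (0.0020) but not the fold. In 1181-Ctrl the mock libraries held 1.00, 0.153 and 0.686 CPM and the GRP libraries 1.15, 0.190 and 1.24 CPM, a log2 difference of 0.49 ± 0.986. In 1014-Ctrl they held 7.30, 3.71 and 4.49 CPM against 7.31, 4.97 and 3.38 CPM, a difference of 0.02, or -0.17 without the library against its label.

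*Ccn2*, known for its role in fibrosis and matrix production, stood higher than *Ccn1* per length before treatment in 5 of the 6 lines, 1064 being the exception. In 1057 the mock libraries held 3.60, 4.61 and 4.99 CPM and the GRP libraries 10.3, 12.7 and 12.4 CPM. The groups were well apart, with a log2 fold change of 1.45 ± 0.111 (adjusted p = 2.96e-09). In one fit of all 72 libraries, which shares 1 estimate of the spread, the call was lost (1.42, adjusted p = 0.0662). In 1014-Grpr it rose from 15.8, 13 and 12.6 CPM to 161, 431 and 173 CPM, a log2 fold change of 4.22 ± 0.357 (adjusted p = 6.54e-06). Replicate 2 was again the highest after GRP, and without it the value was 3.61 (adjusted p = 4.09e-07). Counts of *Gm15270*, which overlaps *Ccn2*, were 225, 203 and 146 in these mock libraries and 191, 204 and 215 after GRP, far fewer than the 4047, 13136 and 7799 counts of *Ccn2* after GRP.

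In 1064 *Ccn2* stood at 9.53, 2.35 and 3.44 CPM in mock and at 107, 41.4 and 9.96 CPM after GRP. The lowest GRP library lay just above the highest mock library, and the log2 fold change of 3.35 ± 0.95 missed the threshold (adjusted p = 0.0636). With the replicate as a block it was 3.11 (adjusted p = 1.05e-04), with DESeq2 the adjusted p was 7.95e-04, and without GRP replicate 3 the value was 3.86 (adjusted p = 0.0396). Summed fibroblast markers were highest in this line, at 13.3 to 35.1 CPM in mock and 12.3 to 29.1 CPM after GRP, and these ranges overlapped. In 1181-Grpr *Ccn2* stood at 22.2, 25.2 and 15.4 CPM in mock and 52.3, 24.6 and 18.9 CPM after GRP, a log2 difference of 0.62 ± 0.40 (adjusted p = 1.00), or 0.61 with the block and without the library against its label (adjusted p = 0.0721). In the Ctrl lines its log2 difference was -0.01 in 1181-Ctrl and -0.50 ± 0.241 in 1014-Ctrl, the latter -0.16 without the library against its label. In 1181-Grpr and both Ctrl lines 3 members were tested in each line, and none was at an unadjusted p under 0.05 without the block. Neither DESeq2 nor the block gave a call past both thresholds there.

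**Figure D3:**
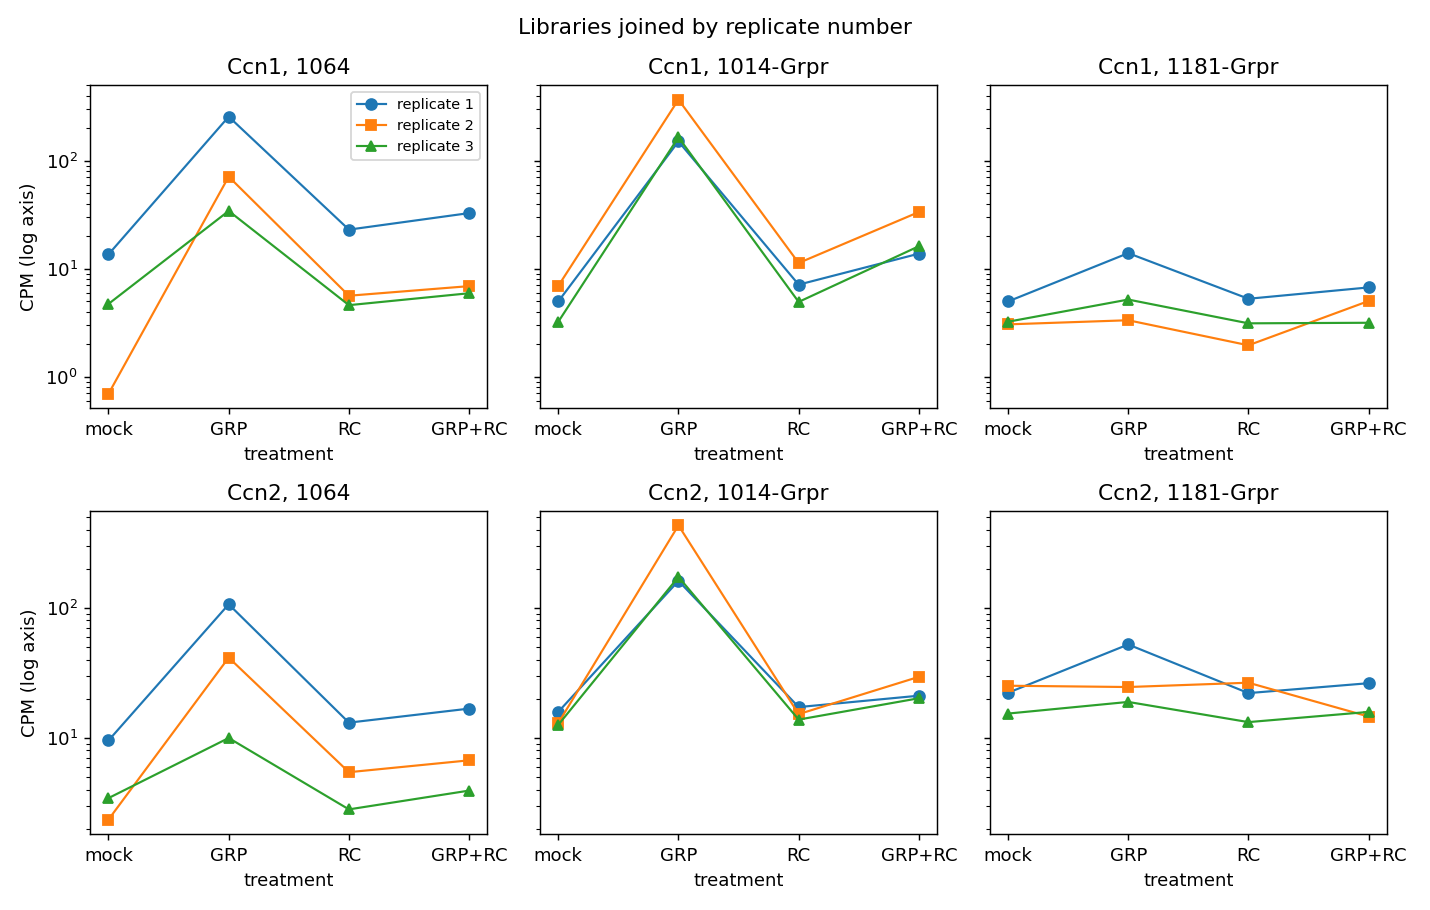
CPM of *Ccn1* and *Ccn2* on a log axis across the treatments in 1064, 1014-Grpr and 1181-Grpr, with libraries of the same replicate number joined by a line. In 1064 the 3 lines are far apart but each rises from mock to GRP, by 18.9, 103 and 7.26 times for *Ccn1*; in 1181-Grpr these ratios are 2.80, 1.09 and 1.61.

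The ratio of *Ccn1* to *Ccn2* was higher after GRP in 1057, 1064 and 1014-Grpr, which is described here and was not tested. Per length, *Ccn1* stood at 0.313 to 0.569 of *Ccn2* in the mock libraries of 1057 and at 2.54 to 2.64 times *Ccn2* after GRP. In 1014-Grpr this ratio was 0.363 to 0.756 in mock and 1.21 to 1.35 after GRP, and in 1064 it was 0.419 to 2.02 and 2.44 to 4.87. In 1064 the medians were 1.95 and 3.41, and the 0.419 came from mock replicate 2, with 13 *Ccn1* counts. The ranges did not overlap in any of the 3 lines, whereas they overlapped in 1181-Grpr at 0.172 to 0.317 and 0.192 to 0.389. After GRP in 1014-Grpr the mean levels were 113 RPKM for *Ccn1* and 89.2 RPKM for *Ccn2*. *Grpr* itself, driven by the CMV promoter in this line, stood at 107 to 141 CPM in mock and 399 to 620 CPM after GRP, and in 1181-Grpr at 8.49 to 17.7 and 19.1 to 79.9 CPM. In 1057 and 1064 *Grpr* was instead lower after GRP. It stood at 273 to 275 and 197 to 210 CPM in 1057, and at 786 to 1284 and 472 to 519 CPM in 1064. The part of these levels in the *Ccn* results was not tested.

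Of the 4 other members, *Ccn3* was called in 1057 and *Ccn4* in 1014-Grpr. *Ccn3*, often described as growth-restraining and as expressed in melanocytes, held 0.768, 0.743 and 0.888 CPM in 1057 mock and 1.34, 1.95 and 1.86 CPM after GRP, from 25, 24 and 29 counts to 39, 66 and 58. The groups did not overlap, and the log2 fold change was 1.13 ± 0.206 (adjusted p = 1.49e-04). In 1014-Grpr *Ccn3* went from 9.26, 7.58 and 6.93 CPM to 11.2, 12.1 and 10.3 CPM, a log2 difference of 0.51 ± 0.12 that passed the adjusted p (0.00702) but not the fold. In 1064 the difference was 1.01 ± 0.633 (adjusted p = 0.397), while 1181-Grpr gave -0.10 ± 0.434 (adjusted p = 1.00). In 1014-Ctrl it was 0.37, or -0.00 without the library against its label, which held 1.94 CPM against 6.27 and 6.56 in the other mock libraries. In 1181-Ctrl *Ccn3* was near the limit, with 4, 2 and 0 counts in mock and 12, 7 and 5 after GRP, and was not tested within the line. The groups did not overlap there either, although the line lacks the receptor.

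*Ccn4* was called in 1014-Grpr at counts of 20, 7 and 2 in mock and 31, 52 and 70 after GRP, or 0.676, 0.211 and 0.0882 CPM against 1.24, 1.71 and 1.55 CPM. The groups did not overlap, and the log2 fold change was 2.17 ± 0.529 (adjusted p = 0.00891). Mock replicate 1 weighed most on this value, which was 3.23 without it (adjusted p = 0.00220). In every other line *Ccn4* was too low for the within-line test, with at most 15 counts in a library. *Ccn5* never exceeded 26 counts, its highest value being in 1181-Ctrl after RC, and was tested within 1181-Ctrl only, where GRP differed from mock by -0.26. In 1014-Grpr *Ccn5* had no count in any GRP or GRP+RC library and 2, 1 and 0 in mock.

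*Ccn6*, which was in no within-line test, had its highest counts in 1057, at 11, 12 and 9 in mock and 1, 2 and 3 after GRP. Pooled, the GRP level was 0.194 of mock (95% exact interval 0.0663 to 0.471, counting error only), and the RC and GRP+RC levels were 0.495 (0.249 to 0.940) and 0.513 (0.263 to 0.963) of mock. Without the filter on low counts the log2 fold change after GRP was -2.28 ± 0.636 (edgeR adjusted p = 0.00164). That fit gave far smaller adjusted p-values than the filtered one, 8.88e-299 in place of 1.67e-15 for *Ccn1* in this line. The p-value for *Ccn6* is therefore not comparable with those of the filtered tests. *Tube1*, which overlaps *Ccn6* on the opposite strand, was also lower in these libraries, at 5.88 to 6.15 CPM in mock and 4.11 to 4.40 CPM after GRP. The part of the overlap in the *Ccn6* counts was not tested.

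**Figure D4:**
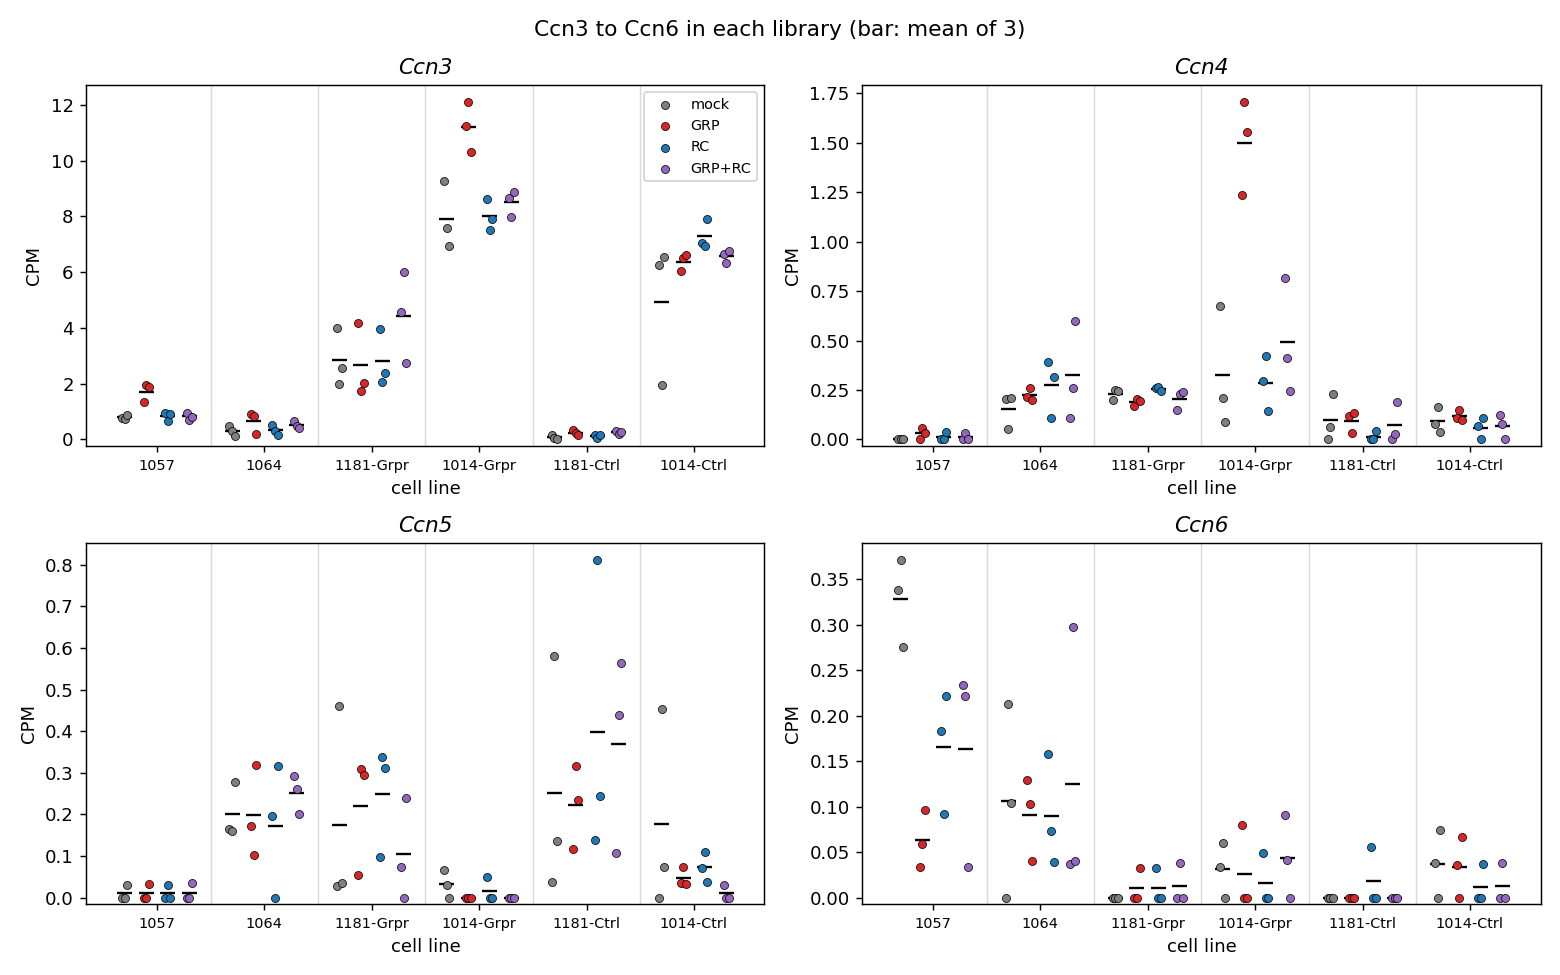
CPM of *Ccn3*, *Ccn4*, *Ccn5* and *Ccn6* in each library on linear axes, by line and treatment, with a bar at the mean of 3. *Ccn3* separates the lines, *Ccn4* stands out after GRP in 1014-Grpr at 1.24 to 1.71 CPM, and *Ccn5* and *Ccn6* stay below 1 CPM.

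In 1057 markers of other cell types moved with the treatment at low levels. Summed endothelial markers stood at 4.58 to 5.24 CPM in mock and 6.51 to 6.94 CPM after GRP, and summed fibroblast markers at 3.89 to 4.73 and 5.66 to 6.44 CPM, without overlap. Of the 3 endothelial and 5 fibroblast markers, 1 of each was above the limit in every library of the line. No such marker was called. The endothelial and the fibroblast marker that were tested passed the adjusted p but not the fold. Their log2 fold changes were 0.50 and 0.53 (edgeR adjusted p = 1.47e-04 and 4.30e-04). The part of these markers in the *Ccn1*, *Ccn2* and *Ccn3* results in 1057 was not tested.

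With the antagonist alone no member was called in any line, in 12 tests of *Ccn1* and *Ccn2* and 7 of the other members, and DESeq2 called none. *Ccn1* in 1057 was at an unadjusted p under 0.05, with 2.14, 1.84 and 2.11 CPM after RC against 1.05 to 1.44 in mock, a log2 difference of 0.75 ± 0.167 that passed the adjusted p (0.00305) but not the fold. Over all genes, 0.81% were called higher after RC in 1057 and 0% in the other 5 lines. In 1014-Grpr *Ccn1* stood at 7.12, 11.3 and 4.92 CPM after RC and *Ccn2* at 17.2, 15.2 and 13.8 CPM, both overlapping mock.

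With GRP and RC together, *Ccn1* was called lower than after GRP alone in 1057 and 1014-Grpr, and *Ccn2* was called lower in 1014-Grpr. In 1014-Grpr *Ccn1* held 13.8, 33.5 and 16.1 CPM with both agents, a log2 change of -3.45 ± 0.440 against GRP (adjusted p = 4.05e-04). *Ccn2* held 21.1, 29.5 and 20.2 CPM, a change of -3.46 ± 0.342 (adjusted p = 7.94e-05), or -2.84 without GRP replicate 2 (adjusted p = 7.95e-06). In 1057 *Ccn1* held 6.10, 5.48 and 6.19 CPM, a change of -1.88 ± 0.0871 (adjusted p = 7.01e-11). In one fit of all 72 libraries this change was -1.86 and not called (adjusted p = 0.529). *Ccn2* in that line held 8.44, 7.51 and 8.35 CPM, below all GRP libraries and above all mock libraries, and its change of -0.57 ± 0.101 passed the adjusted p (3.83e-04) but not the fold.

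In 1064 *Ccn1* held 32.7, 6.89 and 5.93 CPM with both agents and *Ccn2* 16.8, 6.71 and 3.92 CPM. The *Ccn1* values lay below every GRP library, whereas those of *Ccn2* overlapped. The changes against GRP of -3.0 ± 1.12 (adjusted p = 0.383) and -2.54 ± 0.912 (adjusted p = 0.371) were not called, and with the replicate as a block they were -2.99 (adjusted p = 7.79e-04) and -2.36 (adjusted p = 0.00154). In 1181-Grpr the differences were -0.58 for *Ccn1* and -0.75 for *Ccn2*, with adjusted p = 0.855 for both, and -0.61 and -0.60 without the library against its label. With the block as well they were -0.86 (adjusted p = 0.0531) and -0.53 (adjusted p = 0.358). In all, 3 of 12 tests of *Ccn1* and *Ccn2* and 1 of 7 tests of the other members were called lower, where 0.754% of all genes were called lower in 1057, 0.0145% in 1064, 1.59% in 1014-Grpr and 0% in the other lines. With the block, 7 tests were called in place of 4.

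The call among the other members was *Ccn3* in 1057, which returned to 0.963, 0.697 and 0.821 CPM, a change of -1.07 ± 0.206 against GRP (adjusted p = 7.28e-04). It fell under the fold threshold, at -0.96 in each case, without GRP replicate 2 or GRP+RC replicate 2, and one fit of all 72 libraries gave -1.05 for *Ccn3* without a call (adjusted p = 0.519). In 1014-Grpr *Ccn3* changed by -0.42 ± 0.12 (adjusted p = 0.0438), below the fold threshold. *Ccn4* in that line held 18, 10 and 6 counts with both agents, and its change of -1.64 ± 0.517 missed the threshold (adjusted p = 0.0601), while it was -1.72 with the replicate as a block (adjusted p = 0.00168). In 1181-Grpr *Ccn3* was highest in the library against its label, at 6.01 CPM against 4.56 and 2.74.

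**Figure D5:**
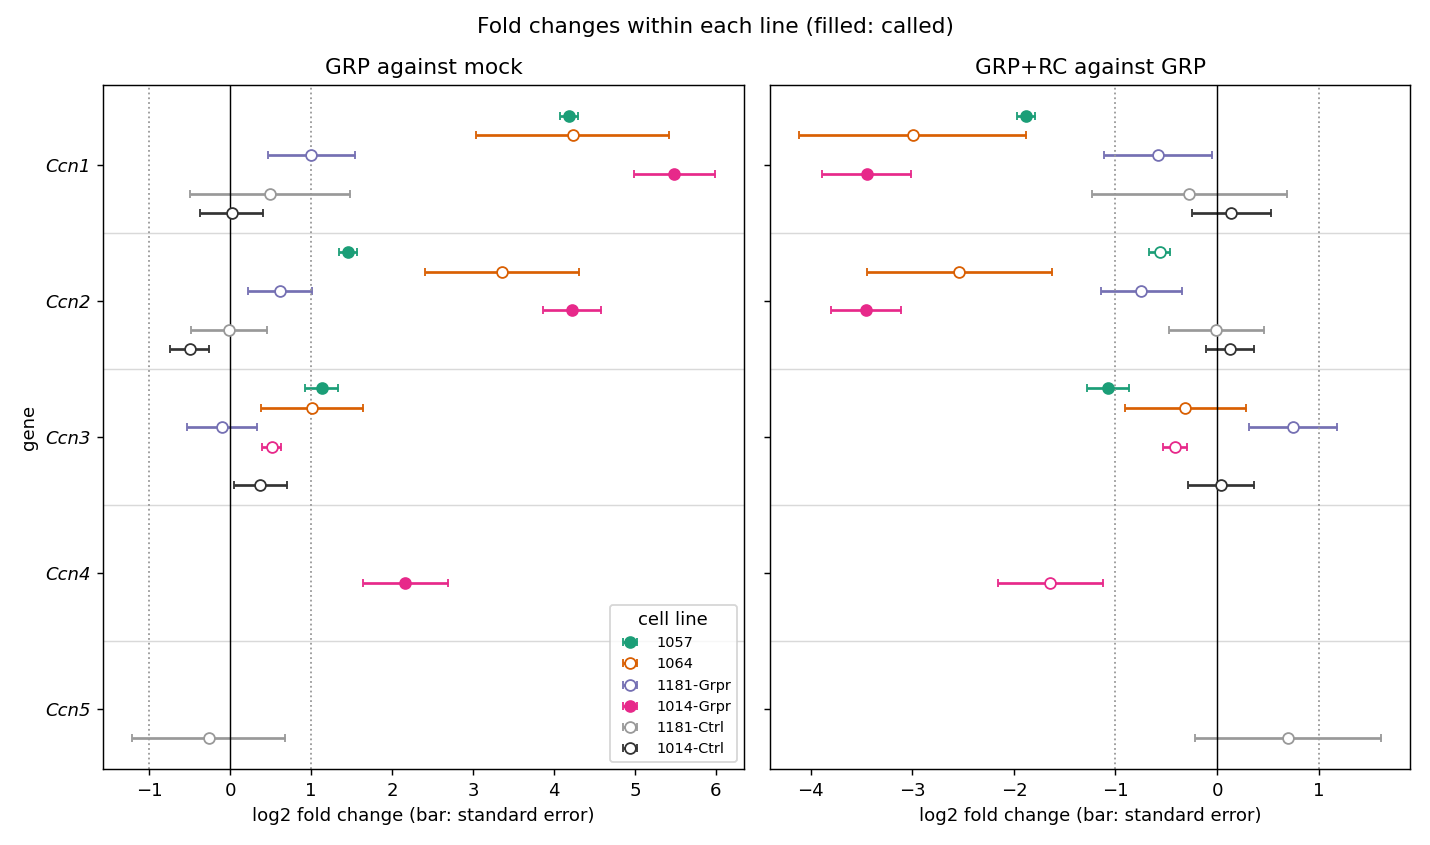
Log2 fold changes of *Ccn1* to *Ccn5* within each line for GRP against mock (left) and GRP+RC against GRP (right), with standard errors, and filled symbols where a change was called. *Ccn1* reaches 5.49 in 1014-Grpr and 4.19 in 1057 on the left, and -3.45 and -1.88 on the right.

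In 1057 the return towards mock was partial. Against mock, *Ccn1* in 1057 remained higher with both agents, by 2.30 ± 0.135 (adjusted p = 1.61e-10, or 0.0623 in one fit of all 72 libraries), with 23.3% of the GRP-induced increase in mean CPM left, and *Ccn2* by 0.88 ± 0.116 (adjusted p = 5.78e-06, below the fold threshold), with 49.95% left. In 1014-Grpr 7.22% of the *Ccn1* increase and 4.05% of the *Ccn2* increase were left. There *Ccn1* stood above mock in every library, by 2.04 ± 0.475 (adjusted p = 0.0741), which became 2.05 with an adjusted p of 1.06e-08 with the replicate as a block. *Ccn2* differed from mock by 0.77 ± 0.338 (adjusted p = 0.403). In 1064 7.76% and 8.48% of the increases were left, and *Ccn1* differed from mock by 1.23, which was not called. Thus 1 of 12 tests of *Ccn1* and *Ccn2* and 0 of 7 of the other members were called in this comparison. None of these 7 was at an unadjusted p under 0.05, and DESeq2 called none. Over all genes 3.02% were called higher in 1057, 0.153% in 1014-Grpr and 0% in the other lines.

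The lines with and without the receptor were compared directly in one fit of all 72 libraries. On the receptor side, 1057 and 1064 differ in genotype from the Ctrl lines and have no version without the receptor. Receptor and genotype therefore cannot be told apart in the comparison of both sets of lines. Its p-values measure the spread between libraries within lines, not between lines. Averaged with equal weight over the 4 lines that carry Grpr, the log2 effect of GRP was 3.72 ± 0.373 for *Ccn1* (adjusted p = 2.13e-11), 2.40 ± 0.266 for *Ccn2* (adjusted p = 3.88e-10), 0.63 ± 0.197 for *Ccn3* (adjusted p = 0.0131, below the fold threshold), 1.34 ± 0.536 for *Ccn4* (adjusted p = 0.0579) and -0.68 for *Ccn5* (adjusted p = 0.549). With the replicate as a block *Ccn4* was called (1.38, adjusted p = 0.0382). For reference, 1.85% of all genes were called higher in this comparison. Over the 2 Ctrl lines the mean effect was 0.28 for *Ccn1*, -0.25 for *Ccn2* and 1.03 for *Ccn3*, and no member was called by edgeR or DESeq2. *Ccn3* alone was at an unadjusted p under 0.05, with an adjusted p of 0.317 and most of its effect in the low counts of 1181-Ctrl. Over all genes, 0.00603% were called higher and 1.08% lower. Without the 2 libraries against their labels edgeR called 0 genes in this comparison.

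The difference between both sets of lines was 3.44 ± 0.711 for *Ccn1* (adjusted p = 8.21e-04) and 2.65 ± 0.450 for *Ccn2* (adjusted p = 5.02e-05), both called, and -0.40 for *Ccn3*, which was not, against 1.55% of all genes called higher. Without the 2 libraries against their labels these differences were 3.53, 2.48 and -0.21. GRP+RC against GRP over the Grpr-expressing lines gave -2.22 ± 0.345 for *Ccn1* (adjusted p = 9.80e-06), -1.82 ± 0.259 for *Ccn2* (adjusted p = 2.01e-06) and -0.25 for *Ccn3*, against 0.452% of genes called lower.

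Within the 2 parental lines that had both versions, the difference between versions was called in 1014 and not in 1181, and the 2 lines were not tested against each other. In 1014 the GRP effect in the Grpr version exceeded that in the Ctrl version by 5.48 ± 0.659 for *Ccn1* (adjusted p = 1.36e-05) and 4.72 ± 0.445 for *Ccn2* (adjusted p = 8.63e-07), where 3.01% of genes were called higher. Without the library against its label they were 5.66 and 4.39, and without the libraries of replicate 2 the *Ccn2* value was 3.72. *Ccn3* gave 0.14, and 0.52 without the library against its label (adjusted p = 0.0254, below the fold threshold), and *Ccn4* gave 1.81 and was not called. In 1181 the differences were 0.49 for *Ccn1* and 0.62 for *Ccn2*, and -1.79 for *Ccn3*, which was the only member at an unadjusted p under 0.05 (adjusted p = 1.00). No member was called there by edgeR, by DESeq2 or with the replicate as a block, and 0% of all genes were called higher. The main test did not use the pairing by replicate number, and 58 of 15041 genes were at an unadjusted p under 0.05. The 0% therefore does not show that no gene responded.

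Other genes of the pathway were described from lists chosen with earlier results of these data known. Of 22 YAP/TAZ targets other than the CCN members, GRP raised 3 of 19 tested in 1057, 2 of 18 in 1064, 5 of 16 in 1014-Grpr and 0 of 17 in 1181-Grpr, with median log2 fold changes of 0.09, 0.44, 0.49 and 0.03. Over all genes the shares called higher in these lines were 4.96%, 1.52%, 3.16% and 0%. None of the 17 in 1181-Ctrl or the 14 in 1014-Ctrl was called, and none was called lower in any line. *Myof*, a membrane repair protein, rose in 1014-Grpr (2.24, adjusted p = 3.06e-06) and 1064 (1.13, adjusted p = 0.0128). *Nt5e*, the CD73 ectonucleotidase, rose in 1057 (3.77, adjusted p = 3.64e-16) and 1014-Grpr (1.5, adjusted p = 0.0151).

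Of 13 receptors and coreceptors for CCN proteins, 10 were tested in each line, and 1 was called higher in 1057, 1 in 1064, 2 in 1014-Grpr and 0 in the other lines, beside the same shares over all genes, with none called lower. *Sdc4*, a heparan sulphate proteoglycan that acts with integrins, rose in both 1014-Grpr (1.05, adjusted p = 5.68e-06) and 1064 (1.17, adjusted p = 0.0145). Among 8 coactivators and TEAD factors, 1 of 8 tested was called higher in 1014-Grpr and 1 of 7 tested was called lower in 1057, beside 3.16% of all genes called higher in 1014-Grpr and 1.5% called lower in 1057. These were *Vgll3*, a TEAD cofactor (2.09, adjusted p = 0.0204), and *Tead3* (-1.0, adjusted p = 1.59e-04), named after their values were seen.

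Genes with the pattern most like each member were ranked by Pearson's r of log2(CPM + 1) over the 24 means of line and treatment. These means share lines and controls and include the 2 libraries against their labels, so that r is a description only. *Ccn1* was most like *Oxr1* (0.977), *Tnc*, which encodes the matricellular protein tenascin C (0.966), *Ppp2ca* (0.944), *Phf10* (0.940) and *Fosl1*, an AP-1 subunit (0.938). *Ccn2* was most like *Vgll3* (0.913), *Stard13* (0.879), *Otud7b* (0.877), *Pde8b* (0.876) and *Smurf1* (0.874). The YAP targets of the family were not each other's nearest neighbours: *Ccn2* ranked 266th for *Ccn1*, and *Ccn1* ranked 75th for *Ccn2*, with r = 0.743.

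*Ccn3* followed the differences between lines and was most like *Ptgs1* (0.985), *Rbm28*, *Ptpn11*, *Rai2* and *Hoxb3* (0.981 for the last). *Ccn4* was most like *Ereg* and *Edn1*, which encode the secreted factors epiregulin and endothelin 1 (0.880 and 0.879), followed by *Mgl2*, *Vcam1* and *Nyap2* (0.864 for the last), and its r with *Ccn2* was 0.779. *Ccn5* was most like *Atg7* (0.955), *Rps6kb2*, *Ftl1*, *Mpnd* and *Usp11* (0.947 for the last), and its r with *Ccn3* was -0.618. At the counts of *Ccn4* and *Ccn5* these values carry much counting error.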

How the data were processed

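RNA was measured by polyadenylated RNA sequencing in 72 libraries. Per the labels and the study's methods, the authors aligned reads with STAR to mm10 (GRCm38.p5) and deposited one table of raw counts per gene, after quality control with FastQC 0.11.5. The version of STAR and the strand setting of the counting are not given in the sources used here. A second deposited table of normalised values was not used. All 72 count columns were matched to a sample by name, and 50376 of 50600 gene identifiers (99.6%) had a symbol in the reference table.

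The members and lists were chosen with earlier results of these data known. Counts were tested with edgeR 4.0.16 in R 4.3.3 (TMM, filterByExpr, glmQLFit and glmQLFTest, one mean per treatment), with 1 fit for each line, 1 for each parental line with both versions, and 1 for all 72 libraries, in which 16596 genes were kept. P-values were adjusted by Benjamini-Hochberg over all genes tested, and a gene was called where the adjusted p was under 0.05 and the log2 fold change exceeded 1 in size. CPM used TMM sizes over all libraries, and RPKM divided CPM by the union of GENCODE exons. Named genes were the members, *Grpr*, *Ddx3y*, the genes that overlap members and the 5 genes most like each member. List members called in at least 2 lines were named too, as was *Tead3*. GRP against mock in 1057, 1064 and 1014-Grpr, and its mean over the Grpr-expressing lines, were checked on simulated data without pairing by replicate. The other tests were not checked in this way. Alternatives were DESeq2 1.42.0, no filter, a replicate block, one fit of all libraries, the adjusted p alone, and leaving out each replicate or the 2 libraries against their labels. Promoter sequences were taken from RefSeq (GRCm38.p6), where 2 of the 6 members had an entry. A floor or interval covers counting error only.

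Replicate numbers came from the sample titles. Over same-numbered libraries of a line, correlations of the deviations from the group means were at least 0.698 in 1064, 0.581 in 1014-Grpr and 0.906 in 1181-Ctrl, and, without the library against its label, at least 0.673 in 1181-Grpr and 0.634 in 1014-Ctrl, so that the numbers were taken to pair the libraries in these lines. In 1057 the lowest was -0.470, and the numbers were not taken as pairs. No 2 libraries of a group agreed within sampling noise (chi-square over degrees of freedom at least 2.56), and none was counted as a duplicate.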

Additional observations from a re-analysis of the deposited data

Results flagged for a closer look

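4 differences between groups of lines under the same contrast passed the test of the difference itself. The effect of GRP on *Ccn1* was larger by 3.44 on the log2 scale in the 4 Grpr-expressing lines than in the 2 Ctrl lines, and that on *Ccn2* was larger by 2.65. These sets of lines also differ in genotype, and the test measures the spread between libraries within lines. Between the Grpr and Ctrl versions of 1014, the effect was larger with Grpr by 5.48 for *Ccn1* and 4.72 for *Ccn2*. In 1181 the same differences were 0.49 and 0.62 and were not called, and the difference between 1014 and 1181 was not tested.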

How the results depend on the processing

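Of the counts of members called per comparison, 214 values under an alternative stayed within 1.5 times the reported count and 12 moved. RC against mock gave 1 call in place of 0 with the adjusted p alone. GRP+RC against mock gave 2 in place of 1 with DESeq2, without the filter, with the replicate block (with or without the 2 libraries against their labels) and with the adjusted p alone, 0 in one fit of all 72 libraries, and 1 to 2 when each replicate was left out, the 2 being without 1057 mock replicate 3, when *Ccn2* reached 1.00. GRP+RC against GRP gave 7 in place of 4 with the block, with or without the 2 libraries. Mock levels between lines gave 12 in place of 6 with the block and without the 2 libraries, and 3 to 8 when each replicate number was left out, the 3 being without replicate 2. The cause of these changes was not tested. In 1057 the numbers do not pair the libraries, and the block changed no call there.

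Of the values of single members, 676 kept their direction and side of the threshold, 23 became called, 6 lost their call and 38 changed sign, none of them a called value. With one fit of all 72 libraries, which shares 1 estimate of the spread over all lines, the adjusted p for 1057 became 0.0662 for *Ccn2* after GRP, 0.0623 for *Ccn1* in GRP+RC against mock, and 0.529 and 0.519 for *Ccn1* and *Ccn3* in GRP+RC against GRP.

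Sign changes came mostly from leaving out replicates. For GRP against mock the ranges were -0.60 to 0.22 for *Ccn3* in 1181-Grpr, -0.51 to 0.51 for *Ccn2* and -0.74 to 1.33 for *Ccn5* in 1181-Ctrl, -0.31 to 0.35 for *Ccn1* and -0.0012 to 0.64 for *Ccn3* in 1014-Ctrl. *Ccn2* in 1181-Ctrl was 0.00045 in one fit of all libraries. In 1014-Ctrl *Ccn1* was -0.014 with the block, -0.17 without the 2 libraries and -0.19 with both, and *Ccn3* was -0.0012 without the 2 libraries. For RC against mock in 1064 they were -0.33 to 1.97 for *Ccn1* and -0.32 to 1.29 for *Ccn2*, and for GRP+RC against mock -0.0091 to 2.43 for *Ccn1*. For GRP+RC against GRP they were -0.76 to 0.028 for *Ccn3* in 1064, -0.94 to 0.24 for *Ccn1* in 1181-Grpr, -0.80 to 0.12 for *Ccn1* and -0.41 to 0.49 for *Ccn2* in 1181-Ctrl, where *Ccn2* was 0.0066 with the block, and -0.097 to 0.47 for *Ccn1* in 1014-Ctrl. The Grpr minus Ctrl difference ranged from -0.40 to 0.85 for *Ccn1* in 1181 and -0.12 to 0.42 for *Ccn3* in 1014. Over the Ctrl lines *Ccn4* ranged from -0.19 to 0.58. Without the 2 libraries *Ccn5* was 0.0078 over the Ctrl lines and -0.69 for the difference between sets of lines (-0.51 with the block), and 0.097 with the block in GRP+RC against GRP. Depth limits *Ccn4* to *Ccn6*, most of whose libraries hold few counts.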
